A study of Mus musculus with 13 samples.

Results

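The genes described here encode 9 adhesion molecules of the immunoglobulin superfamily: Cxadr, Cadm1, Cadm3, Cadm4, Alcam, Ncam1, Vcam1, L1cam and Mcam. They were found by symbol among the 24495 genes of the deposited count table, and all 9 were among the 14607 genes that passed the filter on low counts. They were chosen by symbol with earlier results of these data in view, in which the log2 fold changes and p-values of Cxadr and Cadm1 between pMXs cells at day 5 of reprogramming and untreated cells stood out. That difference is therefore given below as a description, without a test.

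Proteins of this superfamily span the membrane, or are anchored to it, and bind with their immunoglobulin domains to the same molecule, a related molecule or an integrin on the neighbouring cell. Fibroblasts that are reprogrammed towards pluripotency lose mesenchymal features and gain epithelial junctions on the way, and adhesion molecules are part of both states. Tet2 oxidises 5-methylcytosine in DNA, mostly at CpG dinucleotides, which is a step towards removal of the methyl group.

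The cells were primary mouse embryonic fibroblasts (MEFs) from embryonic day 12.5, of the background given as V6.5 129XBI/6, that are labelled Tet2-/- and carry rtTA with doxycycline-inducible OKSM (Pou5f1, Klf4, Sox2 and Myc). Tet2-WT libraries (n = 3) came from such cells infected with a pMXs retrovirus carrying wild-type Tet2, Tet2-E libraries (n = 4) from cells given a Tet2 mutant described in the labels as stalling, and pMXs libraries (n = 3) from cells given the empty vector. These 3 groups were taken at day 5 of reprogramming on a layer of Mito-C-treated MEFs. Their medium held LIF, the factor inducer doxycycline (2 µg/mL), the beta-catenin activator CHIR99021 (3 µM) and the ERK pathway inhibitor PD0325901 (1 µM). Untreated libraries (n = 3) came from MEFs of the same Tet2-/- line that were not reprogrammed, and it is not clear from the labels whether they carry the empty vector. All 4 groups carry this Tet2-/- label, so by it none is a normal fibroblast. No removal of feeder cells is named, so feeder RNA may be part of each day 5 library. In such bulk RNA, fewer cells of a type and less RNA per cell cannot be told apart.

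Total counts per library ran from 14052646 to 26265382. Tet2 RNA was 1176 to 1243 counts-per-million (CPM) in Tet2-WT libraries and 581 to 1403 CPM in Tet2-E libraries, against 39.1 to 58.8 CPM in pMXs libraries and 37.8 to 48.3 CPM in untreated ones. Reads of Tet2 were thus present in libraries that received no Tet2 vector, with 601 to 1022 reads per pMXs library and 901 to 992 per untreated one. The labels do not say which part of the gene is missing and the counts cover the whole gene, so they do not check that label, and what those reads come from was not tested. The lowest Tet2-E value was that of replicate 100, so vector expression was uneven in that group. The 8 fibroblast markers summed to 9409 to 11294 CPM with Tet2-WT, 12995 to 14247 CPM with Tet2-E, 15390.3 to 17436 CPM with pMXs and 36995 to 39486 CPM in untreated MEFs, and none of them was at 0 in the untreated MEFs. Replicates carry the numbers 1, 2, 100 and 250, and the day 5 libraries numbered 1 or 2 stood apart from those numbered 100 or 250 across genes. Values within these 2 sets of numbers are given for the 9 genes where they change a call. Numbers 100 and 250 hold a single Tet2-WT and a single untreated library, and numbers 1 and 2 a single pMXs library. Such values thus rest on a single library on that side, with the spread taken from the other libraries of the fit. Separate cultures are not stated for the replicates, so p-values here reflect only the spread between these libraries, which may be technical.

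Cxadr and Cadm1 were the members with far higher RNA at day 5 than in untreated MEFs, and Alcam and L1cam were the members with far lower RNA there. With wild-type Tet2, Alcam RNA fell to 2.84-fold below the empty vector and 2.39-fold below Tet2-E. Cadm1 (1.28-fold) and L1cam (1.76-fold) also fell, and Vcam1 (1.32-fold) rose, with Tet2-WT relative to the empty vector. Tet2-E gave no call for any of the 9 genes relative to the empty vector, a comparison in which 0.0479% of all genes were called. For Tet2-WT against Tet2-E, only Alcam of the 9 passed in the main fit, which has no term for replicate number or set.

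The order of levels can be read only per length, here as CPM per kb of exon in GENCODE M21 gene models. With Tet2-WT the order was Mcam (45.4), Cxadr (33.2), Vcam1 (24.5), Ncam1 (14.2), Cadm1 (6.50), Cadm4 (1.66), Alcam (0.939), L1cam (0.226) and Cadm3 (0.168), and only L1cam and Cadm3 overlapped between libraries. With Tet2-E, Alcam (2.27) stood above Cadm4 (1.49) with no overlap, while Vcam1 (20.9) overlapped Ncam1 (18.0) and Cadm3 (0.292) overlapped L1cam (0.271). With pMXs, Alcam (2.66) likewise stood above Cadm4 (1.79), Vcam1 (18.6) and Ncam1 (18.1) overlapped, and Cxadr (30.7) was second to Mcam (46.1). In untreated MEFs Mcam (41.9) and Vcam1 (41.0) overlapped at the top, Alcam (31.6) and Ncam1 (30.9) overlapped next, and L1cam (2.46), Cadm4 (1.98) and Cxadr (1.72) followed with overlap between neighbours. Cadm3 (0.512) and Cadm1 (0.358) stood last there, each apart from its neighbours.

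**Figure D1:**
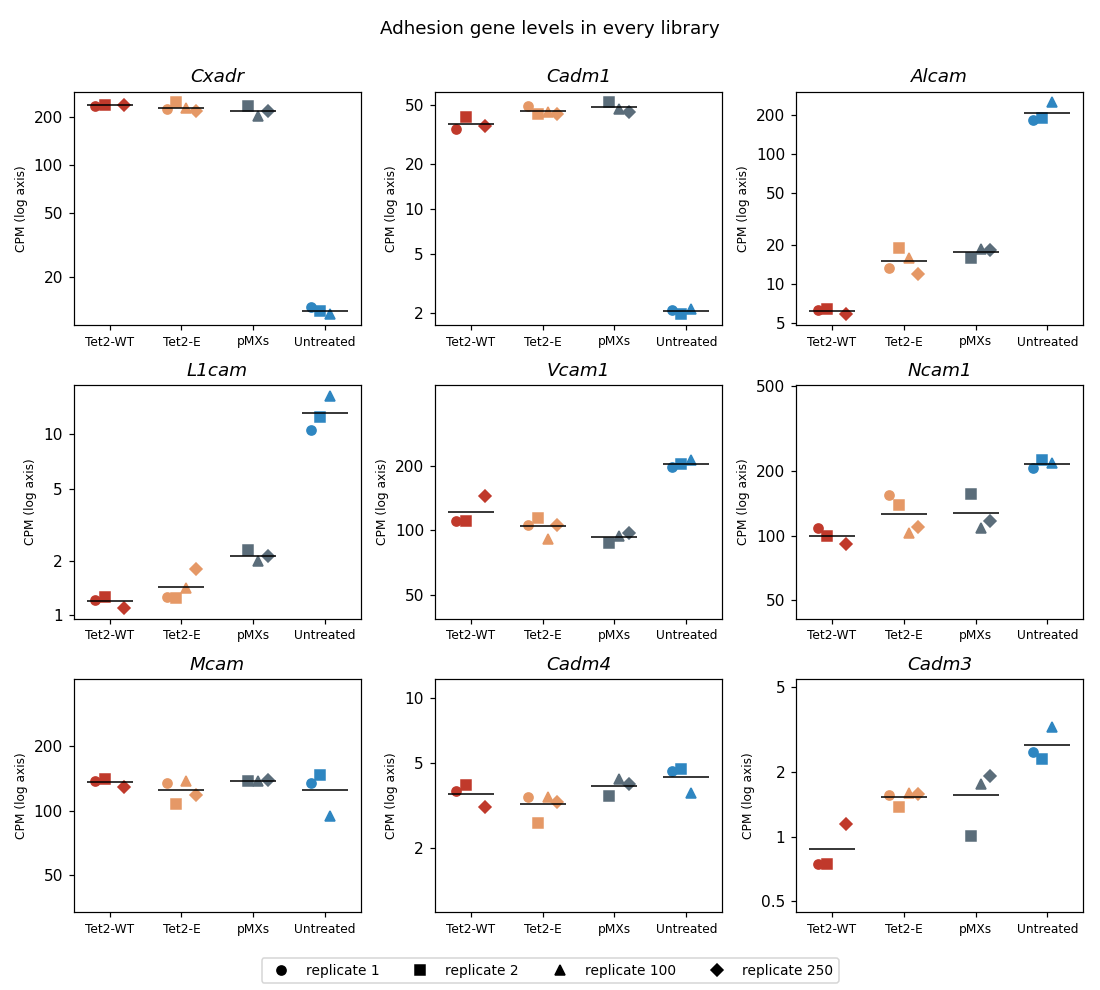
RNA level of each gene in all 13 libraries, in CPM on a log axis; points are libraries, their shape is the replicate number and lines are group means. Cxadr and Cadm1 lie far above the untreated libraries in all 3 day 5 groups, and Alcam and L1cam far below them. Mcam overlaps between all 4 groups, while Cadm4 with Tet2-E lies just below its pMXs and untreated libraries.

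Cxadr (chr16:78301489-78359774, plus strand, here and below in GENCODE M21 on GRCm38), the coxsackievirus and adenovirus receptor, is a component of epithelial tight junctions. Its RNA was 233, 239 and 237 CPM in Tet2-WT libraries, 225, 247, 226 and 217 CPM in Tet2-E libraries, 234, 202 and 219 CPM in pMXs libraries and 12.9, 12.2 and 11.7 CPM in untreated ones. The day 5 groups overlapped one another and were all far above the untreated libraries, with no overlap. In pMXs cells the level was 17.7-fold that of untreated MEFs (log2 4.15). Tet2-WT did not move Cxadr beyond the spread: the log2 difference from pMXs was 0.12 ± 0.07 (SE, edgeR adjusted p = 0.347, 95% interval -0.04 to 0.27), and that from Tet2-E was 0.05 ± 0.07 (edgeR adjusted p = 0.859). The 9 epithelial markers, such as Cdh1 and Epcam, stood as a sum at 231 to 346 CPM with Tet2-WT, 256 to 316 CPM with Tet2-E and 323 to 410.4 CPM with pMXs, against 2.87 to 4.23 CPM in untreated MEFs, so they were high in the same libraries as Cxadr. Most of the sum was Cdh1 (180.1 to 355.3 CPM at day 5), which did not pass for Tet2-WT against pMXs (log2 -0.38 ± 0.16, edgeR adjusted p = 0.143). In that comparison 7 of the 9 markers had a change above 0, 2 rose, Krt8 (1.08 ± 0.20) and Krt18 (1.77 ± 0.25; edgeR adjusted p = 0.00224 and 0.000238), and none fell. Their part in the level of Cxadr was not tested.

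Cadm1, Cadm3 and Cadm4 encode nectin-like molecules, which bind one another and related molecules across the cell gap. Cadm1 (chr9:47530173-47857637, plus strand) RNA was 34.5, 41.7 and 36.0 CPM in Tet2-WT libraries, 48.9, 43.5, 44.8 and 43.2 CPM in Tet2-E libraries, 52.0, 47.2 and 44.8 CPM in pMXs libraries and 2.08, 1.96 and 2.14 CPM in untreated ones. Every Tet2-WT library was below every Tet2-E and every pMXs library, and all 10 day 5 libraries were above the untreated ones. In pMXs cells the level was 23.2-fold that of untreated MEFs (log2 4.53). Cadm1 fell with Tet2-WT by 0.36 ± 0.09 on the log2 scale relative to pMXs (edgeR adjusted p = 0.0119; interval -0.54 to -0.17). This call was lost without Tet2-WT replicate 1 (edgeR adjusted p = 0.0744), without pMXs replicate 2 (0.0548) and within replicate numbers 100 and 250 alone (0.0777), with changes of -0.30, -0.30 and -0.36. Relative to Tet2-E the change was -0.27 ± 0.08 (edgeR adjusted p = 0.077), and Tet2-E differed from pMXs by -0.09 ± 0.08 (edgeR adjusted p = 0.779). The change of Cadm1 relative to Tet2-E passed in 2 of 22 alternatives, among them that with a term for the set (-0.29, edgeR adjusted p = 0.0311).

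Cadm3 (chr1:173333258-173367695, minus strand), a mainly neural member of that family, was scarce. It had 0.751, 0.746 and 1.15 CPM in Tet2-WT libraries, 1.57, 1.38, 1.61 and 1.58 CPM in Tet2-E libraries, 1.01, 1.76 and 1.92 CPM in pMXs libraries and 2.50, 2.32 and 3.26 CPM in untreated ones. The Tet2-WT libraries overlapped the pMXs group only through pMXs replicate 2 and lay below all Tet2-E libraries. Both differences missed the threshold, at -0.85 ± 0.27 against pMXs (edgeR adjusted p = 0.0555) and -0.82 ± 0.25 against Tet2-E (edgeR adjusted p = 0.0881). That against Tet2-E passed in 1 of 22 alternatives, with a term for the set (-0.72, edgeR adjusted p = 0.0465). These values rest on 16 to 46 reads per day 5 library. Exons of Cadm3 also share 284 bases on the same strand with Ackr1, so reads there could be counted for either gene or for neither. Cadm4 (chr7:24482023-24504539, plus strand), which is expressed by epithelial and Schwann cells, was at 3.11 to 3.95 CPM with Tet2-WT, 2.63 to 3.47 CPM with Tet2-E, 3.49 to 4.18 CPM with pMXs and 3.60 to 4.69 CPM in untreated MEFs. Its changes at day 5 lay between -0.27 and 0.15 on the log2 scale, and none passed (edgeR adjusted p = 0.632 to 0.77). Every Tet2-E library of Cadm4 lay below every pMXs and untreated one. Of the same family, Cadm2 was at 1.08 CPM with Tet2-WT and 2.29 CPM with Tet2-E, and it fell in that comparison by 1.06 ± 0.26 (edgeR adjusted p = 0.0277). With the replicate number as a term the change was -0.96 (edgeR adjusted p = 0.05), and it did not pass in 6 of 22 alternatives, such as those without Tet2-WT replicate 1 (0.127), Tet2-WT replicate 2 (0.155), Tet2-E replicate 1 (0.0678) or Tet2-E replicate 2 (0.0602). It is named here because its values were seen.

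**Figure D2:**
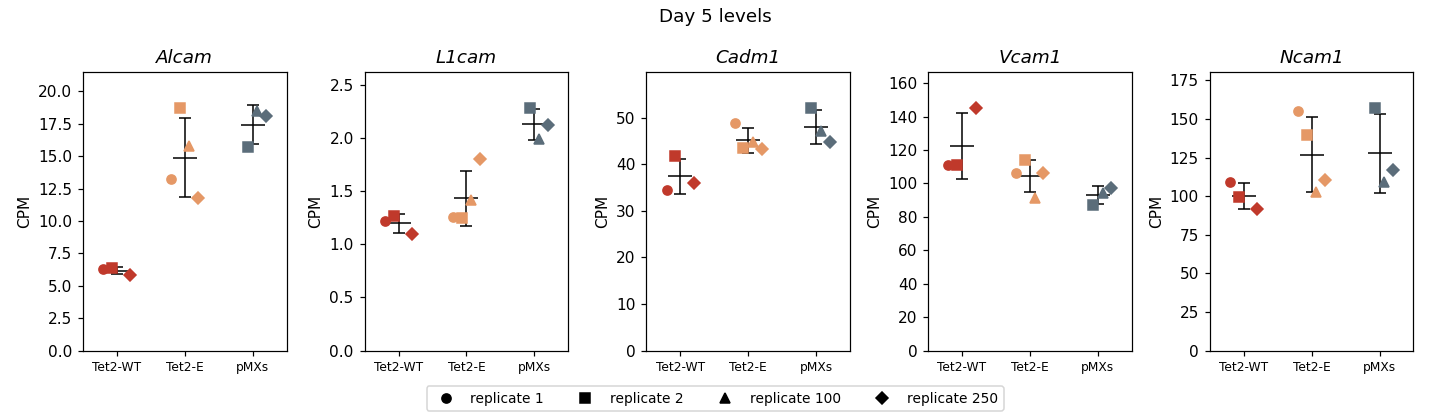
Levels of Alcam, L1cam, Cadm1, Vcam1 and Ncam1 in the 10 day 5 libraries, in CPM on linear axes that start at 0; points are libraries, their shape is the replicate number, and bars are the group mean with its SD. Alcam in Tet2-WT libraries (5.83 to 6.34 CPM) lies below the lowest Tet2-E library (11.8 CPM) and the lowest pMXs library (15.7 CPM).

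Alcam (chr16:52248996-52454074, minus strand), the activated leukocyte cell adhesion molecule, binds itself on neighbouring cells and Cd6 on lymphocytes. Its RNA was 6.29, 6.34 and 5.83 CPM in Tet2-WT libraries, 13.2, 18.7, 15.8 and 11.8 CPM in Tet2-E libraries, 15.7, 18.5 and 18.1 CPM in pMXs libraries and 181, 190 and 249 CPM in untreated ones. Tet2-WT libraries were the lowest with no overlap, Tet2-E and pMXs libraries overlapped, and untreated libraries were far above all of them. The level in pMXs cells was 11.8-fold lower than in untreated MEFs (log2 -3.56). Alcam fell with Tet2-WT, with a log2 change of -1.50 ± 0.17 relative to pMXs (edgeR adjusted p = 3.94e-05; interval -1.86 to -1.15), which ranked 84 by p among the 14607 genes tested. Relative to Tet2-E the change was -1.26 ± 0.16 (edgeR adjusted p = 0.000339; interval -1.60 to -0.92). Alcam passed in all 22 alternatives run for each of these 2 comparisons, with changes of -1.65 to -1.31 and of -1.36 to -1.14, and was -1.31 within replicate numbers 1 and 2 and -1.65 within 100 and 250 relative to pMXs. For Tet2-E against pMXs the change was -0.25 ± 0.15 (edgeR adjusted p = 0.636; interval -0.56 to 0.07).

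The promoter of Alcam is shown because Tet2 acts on CpG dinucleotides, beside those of L1cam, which was also low with Tet2-WT, and of Mcam, which was not called. Each is the RefSeq window on GRCm38.p6 from 250 bases before to 50 after the start, 5′ to 3′ on the gene's strand, with every CpG in capitals. The RefSeq starts used lie inside the GENCODE gene models of all 3 genes. That of L1cam lies the farthest in, as its model on the minus strand begins at chrX:73896105. Windows were found for 5 of the 9 genes. The counts, made by the authors on mm9, were matched to them by gene symbol only.
Alcam, chr16:52453032-52453331, minus strand: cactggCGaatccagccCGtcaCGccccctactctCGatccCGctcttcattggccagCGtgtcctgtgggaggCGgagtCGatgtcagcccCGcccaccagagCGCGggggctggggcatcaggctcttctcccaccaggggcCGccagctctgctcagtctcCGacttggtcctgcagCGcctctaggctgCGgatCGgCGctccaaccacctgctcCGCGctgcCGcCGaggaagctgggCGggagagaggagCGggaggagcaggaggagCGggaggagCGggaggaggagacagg
L1cam, chrX:73880785-73881084, minus strand, the window nearer the gene's start of the 2 listed: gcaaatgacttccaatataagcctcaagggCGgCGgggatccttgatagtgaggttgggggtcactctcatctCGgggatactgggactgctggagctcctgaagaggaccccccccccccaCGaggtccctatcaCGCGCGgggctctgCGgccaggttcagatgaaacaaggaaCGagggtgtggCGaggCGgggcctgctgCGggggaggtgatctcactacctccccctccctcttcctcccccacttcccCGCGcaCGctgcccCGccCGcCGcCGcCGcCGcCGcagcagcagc
Mcam, chr9:44134408-44134707, plus strand: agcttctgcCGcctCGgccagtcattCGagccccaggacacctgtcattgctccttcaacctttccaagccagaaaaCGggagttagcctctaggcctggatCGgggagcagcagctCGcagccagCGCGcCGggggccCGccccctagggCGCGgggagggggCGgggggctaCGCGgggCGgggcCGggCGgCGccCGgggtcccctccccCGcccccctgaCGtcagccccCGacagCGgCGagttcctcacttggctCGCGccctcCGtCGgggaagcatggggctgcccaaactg
These windows hold 25 CpG in Alcam, 22 in L1cam and 29 in Mcam, against a median of 7 over 32851 windows of the table, of which 81.6%, 76.9% and 87.1% hold fewer. The other 2 genes with a window, Cadm3 and Cadm4, hold 17 and 40. The GC box GGGCGG, searched on both strands, occurs 2 times in Alcam, 2 times in L1cam and 5 times in Mcam, and 35.7% of all windows hold it. The letters CCAAT occur 1 time each in Alcam and L1cam and are not in the Mcam window (37.4% of all windows), and TATAAA is in none of the 3 (13.6%). All 5 windows thus hold more CpG than the median of 7. They belong to genes that fell with Tet2-WT relative to pMXs (Alcam and L1cam) and to genes not called there (Cadm3, Cadm4 and Mcam). Methylation was not measured here.

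L1cam and Ncam1 are neural adhesion molecules that act in axon growth and bind themselves or each other. L1cam (chrX:73853778-73896105, minus strand) RNA was 1.22, 1.27 and 1.10 CPM in Tet2-WT libraries, 1.26, 1.25, 1.42 and 1.80 CPM in Tet2-E libraries, 2.28, 1.99 and 2.12 CPM in pMXs libraries and 10.5, 12.4 and 16.2 CPM in untreated ones. Both Tet2 vectors gave values below every pMXs library and overlapped each other. In pMXs cells L1cam was 6.13-fold lower than in untreated MEFs. It fell with Tet2-WT by 0.82 ± 0.22 relative to pMXs (edgeR adjusted p = 0.0253). The call was lost without any single one of the 6 libraries compared (edgeR adjusted p = 0.0577 to 0.0722) and with a term for the replicate number (-0.68, edgeR adjusted p = 0.068). It was also lost within replicate numbers 1 and 2 (-0.87, edgeR adjusted p = 0.0982) and within 100 and 250 (-0.89, edgeR adjusted p = 0.0978). Tet2-E differed from pMXs by -0.54 ± 0.21 (edgeR adjusted p = 0.42), and the 2 Tet2 vectors differed by -0.28 ± 0.22 (edgeR adjusted p = 0.65; interval -0.74 to 0.18). The day 5 values rest on 18 to 52 reads per library.

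Ncam1 (chr9:49502136-49798925, minus strand) RNA was 109, 99.7 and 91.8 CPM in Tet2-WT libraries, 155, 139.6, 103 and 110.4 CPM in Tet2-E libraries, 157, 109 and 117 CPM in pMXs libraries and 207, 226 and 219.8 CPM in untreated ones. The day 5 groups overlapped, and in each of them the libraries numbered 1 or 2 were above those numbered 100 or 250. Relative to pMXs, Tet2-WT gave -0.35 ± 0.15 (edgeR adjusted p = 0.161). With the replicate number as a term the change passed, at -0.44 (edgeR adjusted p = 0.0229), and so did the change relative to Tet2-E, at -0.38 (edgeR adjusted p = 0.0479) where it was -0.34 ± 0.14 without that term (edgeR adjusted p = 0.246). Within replicate numbers 1 and 2, with a single pMXs library, the change relative to pMXs was -0.59. Within 100 and 250, with a single Tet2-WT library, it was -0.30. Relative to Tet2-E it was -0.50 within numbers 1 and 2 (edgeR adjusted p = 0.00119) and -0.22 within 100 and 250. For Tet2-E against pMXs it was -0.01 ± 0.14 (edgeR adjusted p = 0.996). The 8 neural and glial markers summed to 90.3 to 144 CPM with Tet2-WT, 119 to 172 CPM with Tet2-E, 128 to 162 CPM with pMXs and 303 to 332 CPM in untreated MEFs. Of the 7 that could be tested, 3 fell and none rose with Tet2-WT relative to pMXs, and their part in the values of L1cam and Ncam1 was not tested. Exons of Ncam1 share 417 bases with an antisense gene, Gm11149, and counting by strand is not stated, so reads of the 2 cannot be told apart there.

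Vcam1 and Mcam are adhesion molecules of the vessel wall. Vcam1 (chr3:116109949-116129688, minus strand) is the ligand of the integrin made of Itga4 and Itgb1 on leukocytes and is also made by stromal cells. Its RNA was 111, 111 and 145 CPM in Tet2-WT libraries, 106, 114, 91.2 and 106 CPM in Tet2-E libraries, 86.9, 94.2 and 97.5 CPM in pMXs libraries and 197, 203 and 212 CPM in untreated ones. Tet2-WT libraries were all above the pMXs ones, overlapped the Tet2-E ones, and were all below the untreated ones. Vcam1 rose with Tet2-WT by 0.40 ± 0.10 relative to pMXs (edgeR adjusted p = 0.0195; interval 0.18 to 0.62), the reverse of its lower level in pMXs cells than in untreated MEFs (log2 -1.14). The call was lost without Tet2-WT replicate 250 (0.26, edgeR adjusted p = 0.0839), pMXs replicate 2 (0.35, 0.0737) or pMXs replicate 100 (0.41, 0.0597). Relative to Tet2-E the change was 0.23 ± 0.10 (edgeR adjusted p = 0.244). It was 0.02 within replicate numbers 1 and 2 and 0.55 within 100 and 250, where Tet2-WT had a single library, replicate 250. The difference between these 2 values did not pass over all genes (0.54, edgeR adjusted p = 0.692). Its exons share 61 bases with the antisense gene Gm43109.

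Mcam (chr9:44134469-44142727, plus strand), the melanoma cell adhesion molecule, is made by endothelium, pericytes and smooth muscle. It had 137, 141 and 129 CPM in Tet2-WT libraries, 135, 108, 138 and 118 CPM in Tet2-E libraries, 137, 137 and 139 CPM in pMXs libraries and 134, 147 and 94.1 CPM in untreated ones. All 4 groups overlapped. The change with Tet2-WT relative to pMXs was -0.02 ± 0.13 (edgeR adjusted p = 0.942; interval -0.30 to 0.25), and that with Tet2-E was -0.14 ± 0.12 (edgeR adjusted p = 0.765). Pericyte and smooth muscle markers summed to 538 to 624 CPM with Tet2-WT, 639.5 to 735 CPM with Tet2-E, 636 to 696 CPM with pMXs and 3161 to 3998 CPM in untreated MEFs, an order that Mcam did not share. The 8 endothelial markers summed to 74.8 to 84.6 CPM with Tet2-WT, 78.2 to 88.3 CPM with Tet2-E and 71.7 to 87.0 CPM with pMXs, against 4.41 to 10.7 CPM in untreated MEFs. Nearly all of this was Tek (66.96 to 82.13 CPM at day 5), while the defining marker Pecam1 was at 0 to 0.2238 CPM at day 5 and Emcn at 0 in every Tet2-E and pMXs library. As a sum, macrophage and blood markers were highest in Tet2-WT libraries and lowest in untreated ones, where Vcam1 was highest. They summed to 213 to 309 CPM with Tet2-WT, 93.5 to 127 CPM with Tet2-E, 81.0 to 94.6 CPM with pMXs and 5.89 to 6.86 CPM in untreated MEFs, mostly Laptm5 (191.1 to 281.7 CPM with Tet2-WT). Adgre1 was at 0 in all Tet2-WT and pMXs libraries, and Ptprc and Cd53 in all pMXs libraries. Of the 6 macrophage and blood markers that could be tested, 4 rose with Tet2-WT relative to pMXs. Between pMXs cells and untreated MEFs, 3 of the 6 had a change above 0 and 3 a change below 0 (Csf1r, Cd53 and Lyz2). Within Tet2-WT the sum of the macrophage and blood markers was lowest, at 213 CPM, in replicate 250. That library had the highest Vcam1 level (145 CPM).

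Counted over the 9 genes, 4 passed for Tet2-WT against pMXs (edgeR, Benjamini-Hochberg adjusted p below 0.05 over all genes), of which 1 rose and 3 fell. Over all 14607 genes tested 12.5% passed, 6.01% higher and 6.52% lower. The libraries of the 2 groups did not overlap for the same 4 genes, and for 34.6% of all genes. The count of 4 was 2 without Tet2-WT replicate 1, pMXs replicate 2 or pMXs replicate 100 and within replicate numbers 100 and 250. None of the 9 passed for Tet2-E against pMXs, in edgeR or in DESeq2, where edgeR called 0.0479% of all genes (7 genes, or 93 with the replicate number as a term). L1cam was the single one of the 9 with an unadjusted p below 0.05 in that comparison, where 9.33% of all genes had one. Only Alcam passed for Tet2-WT against Tet2-E, where 4.62% of all genes did, and with the replicate number as a term Ncam1 passed too. With a term for the set, Cadm1, Cadm3 and Ncam1 passed beside Alcam, and 1052 genes were called. The comparisons with pMXs share its 3 libraries, and those libraries also entered the description against untreated MEFs.

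**Figure D3:**
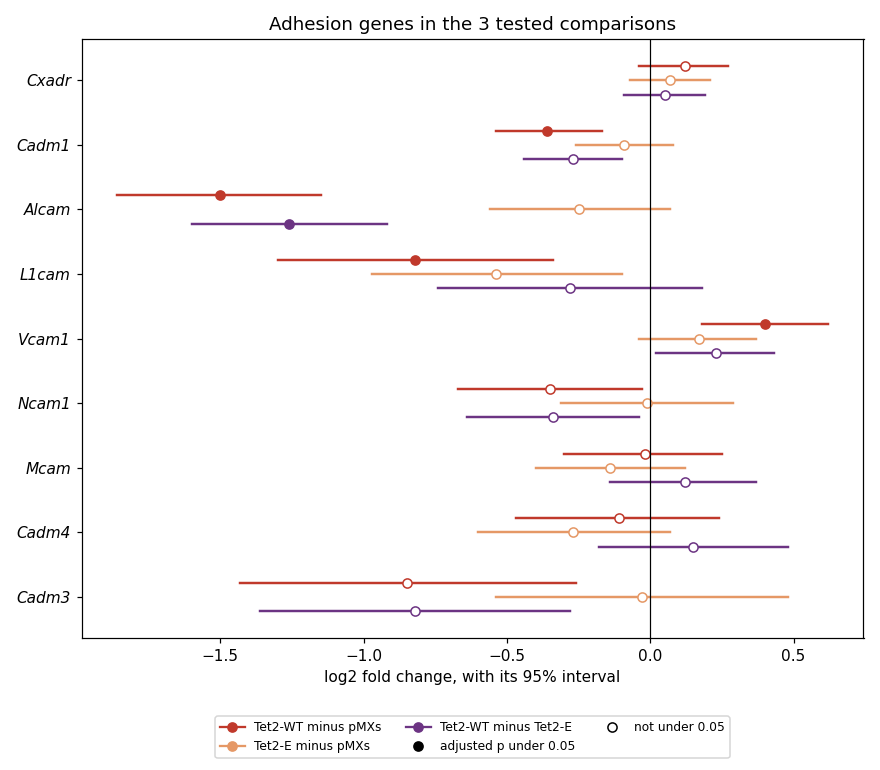
Log2 fold changes of the 9 genes in the 3 tested comparisons, with 95% intervals; filled points have an edgeR adjusted p below 0.05 over all genes tested. Alcam lies at -1.50 and -1.26 in the comparisons of Tet2-WT with pMXs and Tet2-E, and all 9 points of Tet2-E minus pMXs are open.

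**Figure D4:**
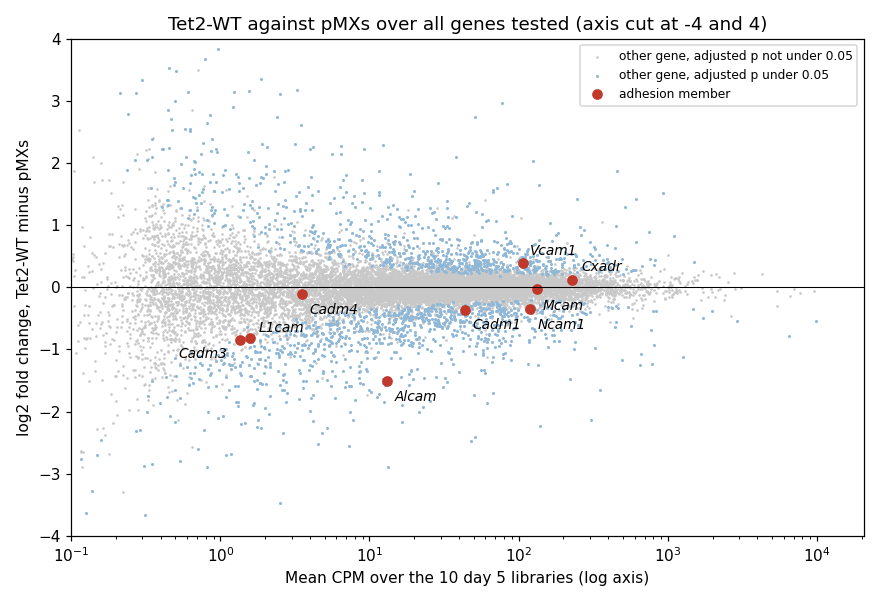
Log2 fold change of Tet2-WT minus pMXs for all genes tested, against their mean level over the 10 day 5 libraries in CPM on a log axis; 76 genes lie outside the axes. Red points are the 9 adhesion genes, among which Alcam at -1.50 lies farthest from 0.

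Of 58 related adhesion genes of the immunoglobulin type, 43 could be tested. Of all genes tested, 6.01% rose and 6.52% fell with Tet2-WT against pMXs. Among the 43, 4 rose and 7 fell, with a median log2 change of -0.22, against -0.004 over all genes. Those that rose with the smallest p were Pvr, the poliovirus receptor and a nectin-like molecule (56.1 CPM with Tet2-WT and 37.0 CPM with pMXs), Nectin4, an epithelial nectin (6.36 CPM with Tet2-WT and 2.65 CPM with pMXs), and Mpzl1, a relative of the myelin protein zero gene (102 CPM with Tet2-WT and 79.7 CPM with pMXs). Those that fell were Icam1, an integrin ligand (43.3 CPM with Tet2-WT and 58.3 CPM with pMXs), Thy1, a fibroblast surface marker (105 CPM with Tet2-WT and 169 CPM with pMXs), and Nectin2, a nectin of cell junctions (19.5 CPM with Tet2-WT and 28.9 CPM with pMXs). Their log2 changes were 0.60 ± 0.09, 1.24 ± 0.21 and 0.36 ± 0.07 for the genes that rose and -0.43 ± 0.07, -0.69 ± 0.12 and -0.57 ± 0.10 for those that fell (edgeR adjusted p = 0.000613 to 0.00371). Thus Icam1 fell while Vcam1, a further integrin ligand, rose. The count of 11 was 7 within replicate numbers 100 and 250, where Nectin4 no longer passed (0.80, edgeR adjusted p = 0.0539). None of the 43 passed for Tet2-E against pMXs in edgeR (median -0.03), and 1, Pvr, did in DESeq2, with a term for the set and without Tet2-E replicate 100, as did Igsf11 within replicate numbers 1 and 2. For Tet2-WT against Tet2-E, where 4.62% of all genes passed, 2 rose, Nectin4 (0.84 ± 0.19) and Mpzl1 (0.28 ± 0.07), and 7 fell. Among those that fell were Icam1 (-0.40 ± 0.06), Thy1 (-0.52 ± 0.11) and Nectin2 (-0.43 ± 0.10), with edgeR adjusted p = 0.00176 to 0.0236 for the 5 genes named. The count of 9 was 1 without Tet2-WT replicate 1 (Icam1), 2 without Tet2-WT replicate 2 (Icam1 and Sdk2), 5 without any 1 of the 4 Tet2-E libraries and 5 within replicate numbers 100 and 250. Icam1 passed in all 22 alternatives, Thy1 in 20, Nectin4 and Nectin2 in 17 each and Mpzl1 in 16.

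Of 27 binding partners and modifying enzymes of these molecules, 25 could be tested. With Tet2-WT against pMXs, where 12.5% of all genes passed, 2 of the 25 rose and 2 fell (median -0.04). Lgals3, a galectin that binds sugars of cell surface glycoproteins, rose to 370.1 CPM with Tet2-WT, against 138 CPM with pMXs (log2 1.42 ± 0.12, edgeR adjusted p = 4.64e-06), and it also rose with Tet2-E, at 239 CPM against 138 CPM (0.79 ± 0.11, edgeR adjusted p = 0.0229). That call with Tet2-E was lost in 5 of 22 alternatives: without pMXs replicate 100 or 250 (edgeR adjusted p = 0.106 and 0.239), without Tet2-E replicate 1 or 2 (0.0802 and 0.101) and in a fit of the 2 groups alone (0.109), with changes of 0.70 to 0.83. The rise with Tet2-WT exceeded that with Tet2-E by 0.63 ± 0.11 (edgeR adjusted p = 0.00338). St8sia2, which makes the polysialic acid carried by Ncam1, fell to 4.43 CPM with Tet2-WT, against 8.64 CPM with pMXs (-0.95 ± 0.20, edgeR adjusted p = 0.00472). The second polysialic acid enzyme, St8sia4, rose by 1.39 ± 0.36 (edgeR adjusted p = 0.0192) but stayed below 1 CPM, at 0.793 CPM with Tet2-WT and 0.309 CPM with pMXs, and its call was lost in 5 of 22 alternatives, among them those without Tet2-WT replicate 2, pMXs replicate 100 or pMXs replicate 250 (edgeR adjusted p = 0.106, 0.105 and 0.0516). Ank2, an ankyrin that tethers L1-type molecules to the cytoskeleton, fell to 45.4 CPM with Tet2-WT, against 67.1 CPM with pMXs (-0.56 ± 0.11, edgeR adjusted p = 0.00353; -0.38 and 0.109 within replicate numbers 100 and 250). In the fit behind the main results, neither Vcam1 receptor subunit passed. Itga4 was at 51.3 CPM with Tet2-WT and 23.2 CPM with pMXs (1.16 ± 0.38, edgeR adjusted p = 0.0737). Itgb1 was at 1983 CPM with Tet2-WT and 1725 CPM with pMXs (0.20 ± 0.11, edgeR adjusted p = 0.291), and it passed in none of the 22 alternatives. Itga4 passed in 7 of 22 alternatives. Among these were DESeq2 (1.14, DESeq2 adjusted p = 0.0422) and the fit with the replicate number as a term (1.00, edgeR adjusted p = 0.0225). Its change was 0.85 within replicate numbers 1 and 2, with a single pMXs library, and 0.92 within 100 and 250, with a single Tet2-WT library. For Tet2-E against pMXs and for Tet2-WT against Tet2-E, Lgals3 was the 1 gene of this list that passed. Ank2 missed the threshold for Tet2-WT against Tet2-E (-0.38 ± 0.10, edgeR adjusted p = 0.0536) but passed in 10 of 22 alternatives. Among these was the fit with the replicate number as a term (-0.38, edgeR adjusted p = 0.0359). The values of St8sia4, Itga4 and Itgb1 are given because of their roles beside Ncam1 and Vcam1, and were chosen after they were seen.

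Fibroblast markers were lowest in the group in which Alcam was lowest: 5 of the 8 fell and 1 rose with Tet2-WT against pMXs, 4 fell with Tet2-WT against Tet2-E, and none passed for Tet2-E against pMXs. Their part in the change of Alcam, Cadm1, L1cam and Thy1 was not tested. Keratinocyte markers summed to 9.89 to 18.8 CPM with Tet2-WT, 5.97 to 10.4 CPM with Tet2-E, 5.82 to 8.21 CPM with pMXs and 2.29 to 2.48 CPM in untreated MEFs, and skeletal muscle markers to at most 3.02 CPM in any day 5 library and 4.18 to 9.64 CPM in untreated MEFs.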

How the data were processed

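RNA-seq libraries were made by stranded mRNA selection, per the labels' protocols. The authors deposited raw read counts per gene, made with STAR 2.6.1a on mm9 and featureCounts 1.6.2, per the submitters' processing notes, which list DESeq2 1.26.0, R 3.6.2, bedtools 2.27.1 and SAMtools 1.7 too. Whether counting used strand is not given in the sources used here.

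Counts of all 24495 genes in 13 libraries were fitted once in R 4.3.3 with edgeR 4.0.16 (robust quasi-likelihood test, filterByExpr with a count minimum of 10 and a total minimum of 15, TMM, a mean per group), with Benjamini-Hochberg adjustment over the 14607 genes kept. A gene is called, or said to have risen or fallen, at an adjusted p below 0.05. CPM are counts scaled by edgeR to the TMM-corrected library size. The SE is the change over the root of its F value, and intervals use the test's own degrees of freedom. The biological coefficient of variation was 0.102, and pairs of replicates gave 6.3 to 40.4 as chi-square over its degrees of freedom, so no library was a duplicate of another. The procedure was tested on simulated data.

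The genes, lists and tests were chosen with earlier results of these data known. Named genes are the 9 adhesion genes, Tet2, and from each list and comparison up to 3 genes that rose and 3 that fell with the smallest p and at least 1 CPM in 1 group. The numbers 1, 2, 100 and 250 recur in the labels across groups, so pairing was checked on deviations from group means: the 8 same-numbered pairs of day 5 libraries correlated at 0.12 to 0.34, same-set pairs of other numbers at 0.08 to 0.36 and pairs of opposite sets at -0.42 to -0.05. Correlation thus followed the set, and pairs of the same number were not set apart from other pairs of their set. The fit behind the main results has no term for number or set. The value with the replicate number as a block stands beside the result of each named gene whose call it changed. Alternatives were RLE scaling, DESeq2 1.42.0, 2 other filters, the replicate block, a term for the set, each set alone, leaving out each library in turn, and fits of the 2 compared groups alone. Gene models are GENCODE M21 and promoters RefSeq GRCm38.p6, used for lengths, overlaps and sequence.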

Additional observations from a re-analysis of the deposited data

Results flagged for a closer look

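Cadm3 in the 4 Tet2-E libraries was the single result with a library apart from its group: replicate 2 had 1.38 CPM, against 1.57, 1.61 and 1.58 CPM in replicates 1, 100 and 250. The gap to the nearest library was 0.854 of the group's range, above Dixon's limit at the 95% level. Replicate 2 had 20 reads of this gene. Such a gap arises by chance in about 1 of 20 groups, and groups of 3 libraries were not examined in this way. Neither was Tet2, which had 581 CPM in Tet2-E replicate 100 and 1299 to 1403 CPM in the other Tet2-E libraries.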

How the results depend on the processing

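Of the calls, Alcam passed in all 22 alternatives for Tet2-WT against pMXs and against Tet2-E, Cadm1 and Vcam1 in 19 each against pMXs, and L1cam in 13. Cxadr, Cadm4 and Mcam passed in none of the 22 in any comparison. Where a call was lost or gained the cause was not tested.

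The count of genes called for Tet2-E against pMXs, 7, was 141 in DESeq2, 17 without a filter, 93 with the replicate block, 152 with a term for the set, 103 within numbers 1 and 2, 83 within 100 and 250, 0 in a fit of only the 2 groups (in which none of the 9 genes passed either), and 1 to 50 with 1 library left out. No adhesion gene passed there in any of these. For Tet2-WT against Tet2-E the 675 genes called became 1052 with the set term, 1015 within numbers 1 and 2, and 335 to 893 with 1 library left out. The 1 adhesion gene called became 2 with the replicate block, 4 with the set term (Alcam, Cadm1, Cadm3 and Ncam1), 2 within either set, and 1 to 2 with 1 library left out. For Tet2-WT against pMXs the 4 adhesion genes called became 2 within numbers 100 and 250 and 2 to 5 with 1 library left out, and the 1830 genes called became 1097 to 2177. The block changed the calls of Ncam1 and L1cam given above and no other call of the 9 genes; among other named genes it changed those of Itga4, Cadm2 and Ank2. A test of the difference between the 2 sets was added after seeing the data, and no gene of the 9 passed it.

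Small changes that missed the threshold turned in sign in some settings. For Tet2-E against pMXs, Cadm3 was 0.04 with the set term, 0.55 within numbers 1 and 2, and 0.01, 0.09 and 0.11 without Tet2-E replicate 2, pMXs replicate 100 and pMXs replicate 250; Alcam was 0.01 within numbers 1 and 2; Ncam1 was 0.07, 0.05 and 0.17 without Tet2-E replicate 100, Tet2-E replicate 250 and pMXs replicate 2. For Tet2-WT against pMXs, Cadm4 was 0.14 and Mcam 0.02 within numbers 1 and 2, and Mcam was 0.01 without Tet2-WT replicate 250. For Tet2-WT against Tet2-E, Cadm4 was -0.12 within numbers 100 and 250. For pMXs against untreated MEFs, Mcam was -0.04 within numbers 1 and 2 and -0.03 without untreated replicate 100, and Cadm4 was 0.18 within 100 and 250. Cadm3 passed for Tet2-WT against pMXs in 3 of 22 alternatives, at -1.07 without Tet2-WT replicate 250, -1.06 without pMXs replicate 2 and -0.85 without untreated replicate 100. With 1 library left out, values of these genes spanned -0.24 to 0.11 (Cadm3) and -0.13 to 0.17 (Ncam1) for Tet2-E against pMXs, -0.05 to 0.01 (Mcam) for Tet2-WT against pMXs and -0.03 to 0.27 (Mcam) for pMXs against untreated MEFs. Depth limits Cadm3 and L1cam, with 16 to 52 reads in each day 5 library.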

Other observations

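Across the 10 day 5 libraries, the genes of at least 5 CPM whose log2 level followed Alcam most closely were Edil3 (Pearson r = 0.983), Prkg1 (0.983) and Arxes2 (0.979). Edil3 encodes a secreted protein that binds integrins, and Prkg1 encodes a cGMP-dependent protein kinase. For Cadm1 they were Zbed3 (0.98), Ldhb (0.95) and Tubb4a (0.948), and for Vcam1 they were Manba (0.969), 1810058I24Rik (0.942) and Tiparp (0.941). For Ncam1 they were Kit (0.957), Acta1 (0.939) and Fbln2 (0.929). Among the 9 genes themselves, the pairs of highest correlation were Cadm4 with Mcam (0.85), Cadm1 with Alcam (0.78) and Cadm3 with Alcam (0.77), and the lowest were Cadm1 with Vcam1 and Vcam1 with L1cam (-0.75 each). These correlations describe 10 libraries that share vector groups and sets of replicate numbers, and the most similar genes were chosen from 10741, so they carry no test.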
